A study of Mus musculus with 21 samples.

Results

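The libraries labelled sgZbtb1 were compared directly with those labelled sgCbfa2t2, 3 QuantSeq libraries against 3, and the sgControl libraries did not enter the test. These are 6 of the 15 QuantSeq libraries and of the 21 samples of the series. Every gene whose values averaged more than 1 TPM across the 6 libraries was compared. There were 11443 of these among the 55421 gene identifiers of the table, of which 16426 had a value above 0 in at least 1 of the 6. The gene just inside this threshold, Gm45242, averaged 1.00 TPM and the one just outside it, Gm37132, 0.9998 TPM. All cells were of the LP line, *Ebf1*-deficient lymphoid progenitors of strain C57BL6/J. They were grown on OP9 stromal cells with SCF, IL-7 and Flt3L and received no Notch stimulation. The cells carried Cas9-GFP and were transduced with a pool of 2 retroviral vectors, each with the marker hNGFR and 1 sgRNA, against *Zbtb1* or against *Cbfa2t2*. GFP+hNGFR+ cells were sorted 5 days later. The sgControl cells, given below for reference only, were treated alike with sgRNAs against luciferase. Sorting selects cells that carry Cas9-GFP and at least 1 of the sgRNA vectors, not cells in which the gene was cut. Each library is therefore a mixed population of 1 cell line.

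*Zbtb1* encodes a DNA-binding protein with a BTB domain and zinc fingers that is needed for lymphocyte development. *Cbfa2t2* (also called Mtgr1) and its relative *Cbfa2t3* (Eto2) belong to the ETO family of corepressors, which are brought to DNA by transcription factors and recruit NCoR and histone deacetylases. *Lmo2* is an adaptor that joins E proteins, GATA factors and *Ldb1*, and in hematopoietic progenitors ETO family corepressors are found in the same complexes. The comparison sets the targeting of a zinc finger protein against that of a corepressor in the same progenitors.

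QuantSeq reads each mRNA near its 3′ end, so that a level in TPM here is a share of the reads of the library and is not divided by gene length. The 6 libraries held 1790019 to 2095447 reads. In them 3 reads were worth 1.43 to 1.68 TPM, and values under this floor are within counting error. Pearson's r of the log2 values across genes, which are not independent replicates, was 0.960 to 0.966 between libraries of a group. *Zbtb1* mRNA was at 94.4, 113 and 109 TPM in sgZbtb1 and 53.2, 50.1 and 83.1 TPM in sgCbfa2t2. It was higher in the libraries labelled sgZbtb1, without overlap (log2 difference 0.79, SE 0.15, limma adjusted p = 0.000235). *Cbfa2t2* mRNA was at 16.8, 6.69 and 10.3 TPM in sgZbtb1 and 25.5, 23.9 and 16.4 TPM in sgCbfa2t2. The libraries overlapped, and the difference did not pass the adjusted threshold (log2 difference -0.97, SE 0.31, limma adjusted p = 0.0754), although it did without sgZbtb1 replicate 1 (log2 difference -1.27, limma adjusted p = 0.017). Reads at the 3′ end do not cover a cut elsewhere in the gene, so these mRNAs do not check the labels. The study blotted the Zbtb1 protein and lists no blot of the Cbfa2t2 protein, and blots were not analysed here. All 11 genes listed as lymphoid progenitor markers were detected, with *Ptprc* (CD45) at 408, 404 and 362 TPM in sgZbtb1 and 412, 400.4 and 439 TPM in sgCbfa2t2. *Ebf1* reads were present at 221, 209 and 221 TPM in sgZbtb1 and 271, 249 and 264 TPM in sgCbfa2t2. Whether these 3′ reads lie outside the deleted part was not examined, so they do not check the deficiency.

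In a limma fit of the 6 libraries on log2(TPM + 1), 309 of the 11443 genes (2.70%) had a Benjamini-Hochberg adjusted p under 0.05. The sgZbtb1 libraries were higher in 105 (0.918%) and lower in 204 (1.78%), so that 66.0% of the calls were lower. In 287 of the 309 genes the libraries of one group all lay above those of the other, which was the case for 18.0% of all genes tested. The median log2 difference, sgZbtb1 minus sgCbfa2t2, was 0.56 among the higher and -0.77 among the lower calls and -0.03 over all genes. An absolute log2 difference above 1 was reached by 99 of the 309. The study names its DEGs by an unadjusted p under 0.05, an absolute log2 difference above 1 and at least one group that averages more than 10 TPM. Applied to this fit, that rule named 110 genes (0.961%), of which 25 (0.218%) were higher and 85 (0.743%) lower. Of these, 77 also passed the adjusted threshold. An unadjusted p under 0.05 was found for 1511 genes (13.2%). The 309 adjusted calls became 151 without sgCbfa2t2 replicate 2, 182 without sgZbtb1 replicate 3 and 204 without sgZbtb1 replicate 2. DESeq2 on the recovered reads called 169 genes and edgeR 293.

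**Figure D1:**
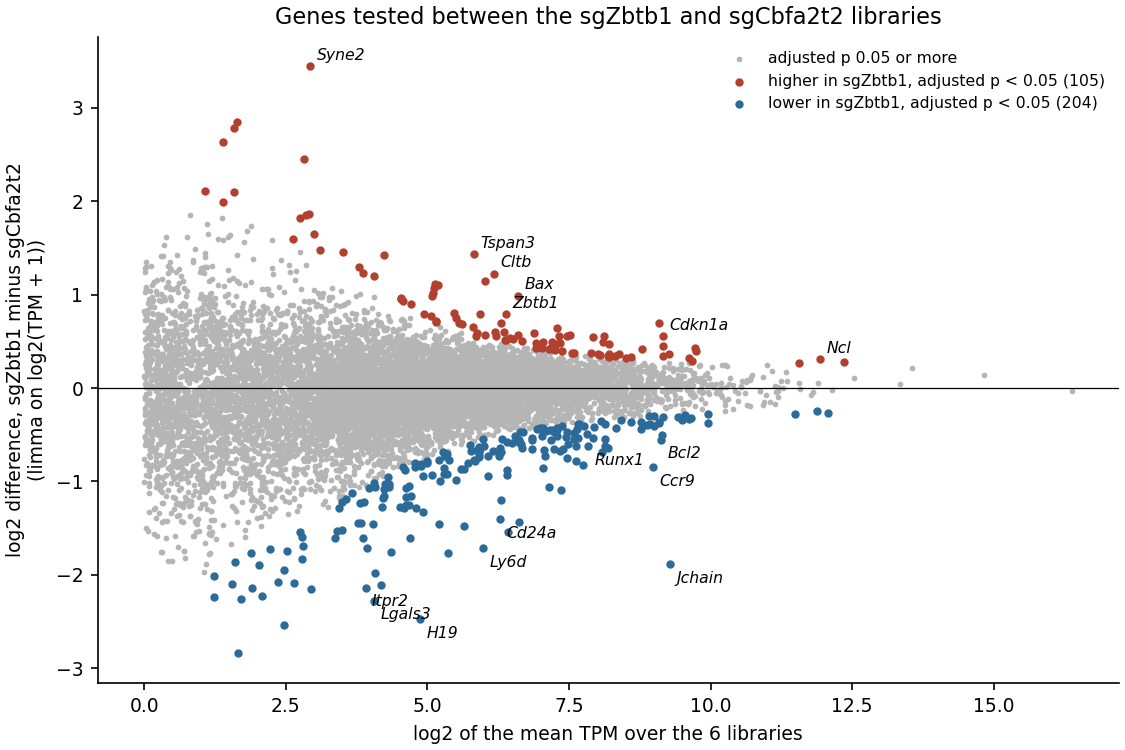
Log2 difference (sgZbtb1 minus sgCbfa2t2, limma on log2(TPM + 1)) against the log2 mean TPM over the 6 libraries, with 1 point per gene tested. The 105 genes that were higher and the 204 that were lower in sgZbtb1 at an adjusted p under 0.05 are coloured, and more of the coloured points lie below 0 than above it.

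The protein-coding genes that passed the adjusted threshold without overlap, at more than 10 TPM on average in one group at least, were ranked by the size of the difference. These were 88 higher and 166 lower genes, and the 12 largest on each side are given. *Syne2* (ENSMUSG00000063450, chr12:75818134-76110926 on the plus strand of mm10), which encodes the nuclear envelope protein nesprin-2, led the higher side. It was at 12.8, 15.8 and 15.7 TPM in sgZbtb1 and 0.532, 0.954 and 0 TPM in sgCbfa2t2. All 3 sgCbfa2t2 values were under the floor of 3 reads, so no fold is given, and the fitted difference depends on the pseudocount (log2 difference 3.45, SE 0.50, limma adjusted p = 1.04e-07). In sgControl it was at 3.48, 0 and 0.586 TPM. *D1Ertd622e* was at 15.6, 14.8 and 6.87 TPM in sgZbtb1 and 0, 3.34 and 1.93 TPM in sgCbfa2t2, again near the floor in sgCbfa2t2 (log2 difference 2.45, limma adjusted p = 0.000327), with a log2 difference of 1.84 without sgCbfa2t2 replicate 1.

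*Tspan3* (ENSMUSG00000032324, chr9:56131725-56165477 on the minus strand of mm10), a tetraspanin of the cell membrane, was at 93.9, 87.5 and 67.8 TPM in sgZbtb1 and 36.2, 24.3 and 29.9 TPM in sgCbfa2t2. *Cltb* (ENSMUSG00000047547, chr13:54592401-54611344 on the minus strand of mm10), a light chain of clathrin, was at 80.4, 101 and 125 TPM in sgZbtb1 and 36.7, 42.95 and 48.3 TPM in sgCbfa2t2. The sgZbtb1 libraries lay above all sgCbfa2t2 libraries in both, 2.75-fold higher on average for *Tspan3* (log2 difference 1.44, SE 0.18, limma adjusted p = 1.37e-09) and 2.39-fold for *Cltb* (log2 difference 1.22, SE 0.16, limma adjusted p = 8.14e-09). *Lrfn1*, which encodes an adhesion molecule of synapses, was at 32.4, 23.4 and 26.5 TPM in sgZbtb1 and 13.8, 5.73 and 10.6 TPM in sgCbfa2t2 (log2 difference 1.42, SE 0.30, limma adjusted p = 0.000904). *Phf19*, a Polycomb-like subunit of PRC2, was at 11.7, 21.99 and 29.95 TPM in sgZbtb1 and 7.45, 9.07 and 7.25 TPM in sgCbfa2t2 (log2 difference 1.23, SE 0.34, limma adjusted p = 0.0205). *F13a1*, the A chain of coagulation factor XIII, was at 24.02, 18.2 and 28.5 TPM in sgZbtb1 and 13.8, 7.16 and 8.69 TPM in sgCbfa2t2 (log2 difference 1.20, SE 0.31, limma adjusted p = 0.0124). For the last pair the gap between the groups was narrow against their spread. *Cacna1b*, the pore subunit of an N-type calcium channel, was at 15.6, 20.1 and 19.6 TPM in sgZbtb1 and 13.8, 1.43 and 12.6 TPM in sgCbfa2t2, with 1 sgCbfa2t2 library far below the other two (log2 difference 1.30, SE 0.38, limma adjusted p = 0.0341). Without that library, replicate 2, the log2 difference was 0.45. The other 4 genes of this rank had log2 differences from 1.46 (*Ajap1*) to 1.86 (*Sestd1*). *Sestd1* was at 17.9, 8.13 and 11.3 TPM in sgZbtb1 and 1.596, 3.34 and 2.90 TPM in sgCbfa2t2. *Dzip1* was at 13.97, 12.9 and 8.35 TPM in sgZbtb1 and 4.79, 1.91 and 1.45 TPM in sgCbfa2t2. *Fam217b* was at 15.6, 11 and 10.8 TPM in sgZbtb1 and 1.596, 5.73 and 3.38 TPM in sgCbfa2t2. In these 3 and in *Cacna1b* the lowest sgCbfa2t2 library held 3 reads, which is the floor. *Ajap1* was at 12.8, 15.8 and 22.6 TPM in sgZbtb1 and 3.19, 7.63 and 6.28 TPM in sgCbfa2t2. The *Sestd1* call was lost without sgZbtb1 replicate 1 (adjusted p = 0.0968) and with all 15 libraries in one fit. The *Dzip1* call was lost without sgZbtb1 replicate 1 or 2 (adjusted p from 0.0516 to 0.0521). The *Fam217b* call was lost without sgCbfa2t2 replicate 1 or sgZbtb1 replicate 1 (adjusted p from 0.1 to 0.106) and with DESeq2, all 15 libraries in one fit or all genes above 0. The *Ajap1* call was lost without sgCbfa2t2 replicate 1 or sgZbtb1 replicate 3 (adjusted p from 0.0982 to 0.163). The *Phf19* call was lost without sgCbfa2t2 replicate 1 or 3 or sgZbtb1 replicate 2 or 3 (adjusted p from 0.058 to 0.3) and with all 15 libraries in one fit or all genes above 0. The *F13a1* call was lost without sgCbfa2t2 replicate 2 or sgZbtb1 replicate 1 or 3 (adjusted p from 0.0509 to 0.152) and with all 15 libraries in one fit. The *Cacna1b* call was lost without sgCbfa2t2 replicate 2 or sgZbtb1 replicate 2 or 3 (adjusted p from 0.116 to 0.666) and with DESeq2, all 15 libraries in one fit, all genes above 0, edgeR, a mean above 10 TPM required or a pseudocount of 0.1.

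*Lgals3* (ENSMUSG00000050335, chr14:47367751-47386160 on the plus strand of mm10), which encodes galectin-3, led the lower side and was at 5.59, 6.69 and 2.95 TPM in sgZbtb1 and 21.8, 38.7 and 24.2 TPM in sgCbfa2t2. *Itpr2* (ENSMUSG00000030287, chr6:146108299-146502223 on the minus strand of mm10), an IP3 receptor that releases calcium from the endoplasmic reticulum, was at 4.47, 5.26 and 4.91 TPM in sgZbtb1 and 30.9, 24.3 and 20.3 TPM in sgCbfa2t2. *Ctsw*, the protease cathepsin W of cytotoxic lymphocytes, was at 4.47, 7.17 and 6.87 TPM in sgZbtb1 and 39.4, 23.9 and 27.05 TPM in sgCbfa2t2. In these 3 genes the highest sgZbtb1 library stayed under the lowest sgCbfa2t2 library. The means were lower by 5.56-fold for *Lgals3* (log2 difference -2.28, limma adjusted p = 4.81e-07), by 5.16-fold for *Itpr2* (log2 difference -2.14, limma adjusted p = 2.77e-06) and by 4.88-fold for *Ctsw* (log2 difference -2.11, limma adjusted p = 6.85e-07). *Cdh1* (ENSMUSG00000000303, chr8:106603351-106670246 on the plus strand of mm10), which encodes E-cadherin, was at 6.14, 6.69 and 5.40 TPM in sgZbtb1 and 26.6, 19.1 and 37.7 TPM in sgCbfa2t2 (log2 difference -1.98, SE 0.33, limma adjusted p = 6.11e-06). *Jchain* (ENSMUSG00000067149, chr5:88519809-88527891 on the minus strand of mm10) encodes the chain that joins polymeric immunoglobulins and was the most abundant of the 24 genes. It was at 217, 318 and 256 TPM in sgZbtb1 and 728, 1197 and 1028 TPM in sgCbfa2t2 and at 853, 1159 and 1195 TPM in sgControl. The mean was 3.74-fold lower in sgZbtb1 than in sgCbfa2t2 (log2 difference -1.88, SE 0.10, limma adjusted p = 2.22e-34). *Calu*, a calcium-binding protein of the secretory pathway, was at 22.3, 19.1 and 13.3 TPM in sgZbtb1 and 68.1, 71.1 and 52.2 TPM in sgCbfa2t2 (log2 difference -1.77, SE 0.22, limma adjusted p = 3.19e-10). *Cd7*, *Focad*, *Pcx*, *Txk*, *I830077J02Rik* and *Ly6d* complete the 12, with log2 differences from -2.15 to -1.71. In the sgZbtb1 libraries *Focad* held 3, 4 and 3 reads and *Pcx* 2, 6 and 7 reads, at or near the floor. Over the alternatives the *Focad* log2 difference ranged from -2.65 to -1.90. The *Cd7* call was lost without sgCbfa2t2 replicate 2 (adjusted p = 0.0772). The *Focad* call was lost without sgCbfa2t2 replicate 2 (adjusted p = 0.0675). The *Pcx* call was lost without sgCbfa2t2 replicate 2 or sgZbtb1 replicate 1 (adjusted p from 0.0532 to 0.162).

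**Figure D2:**
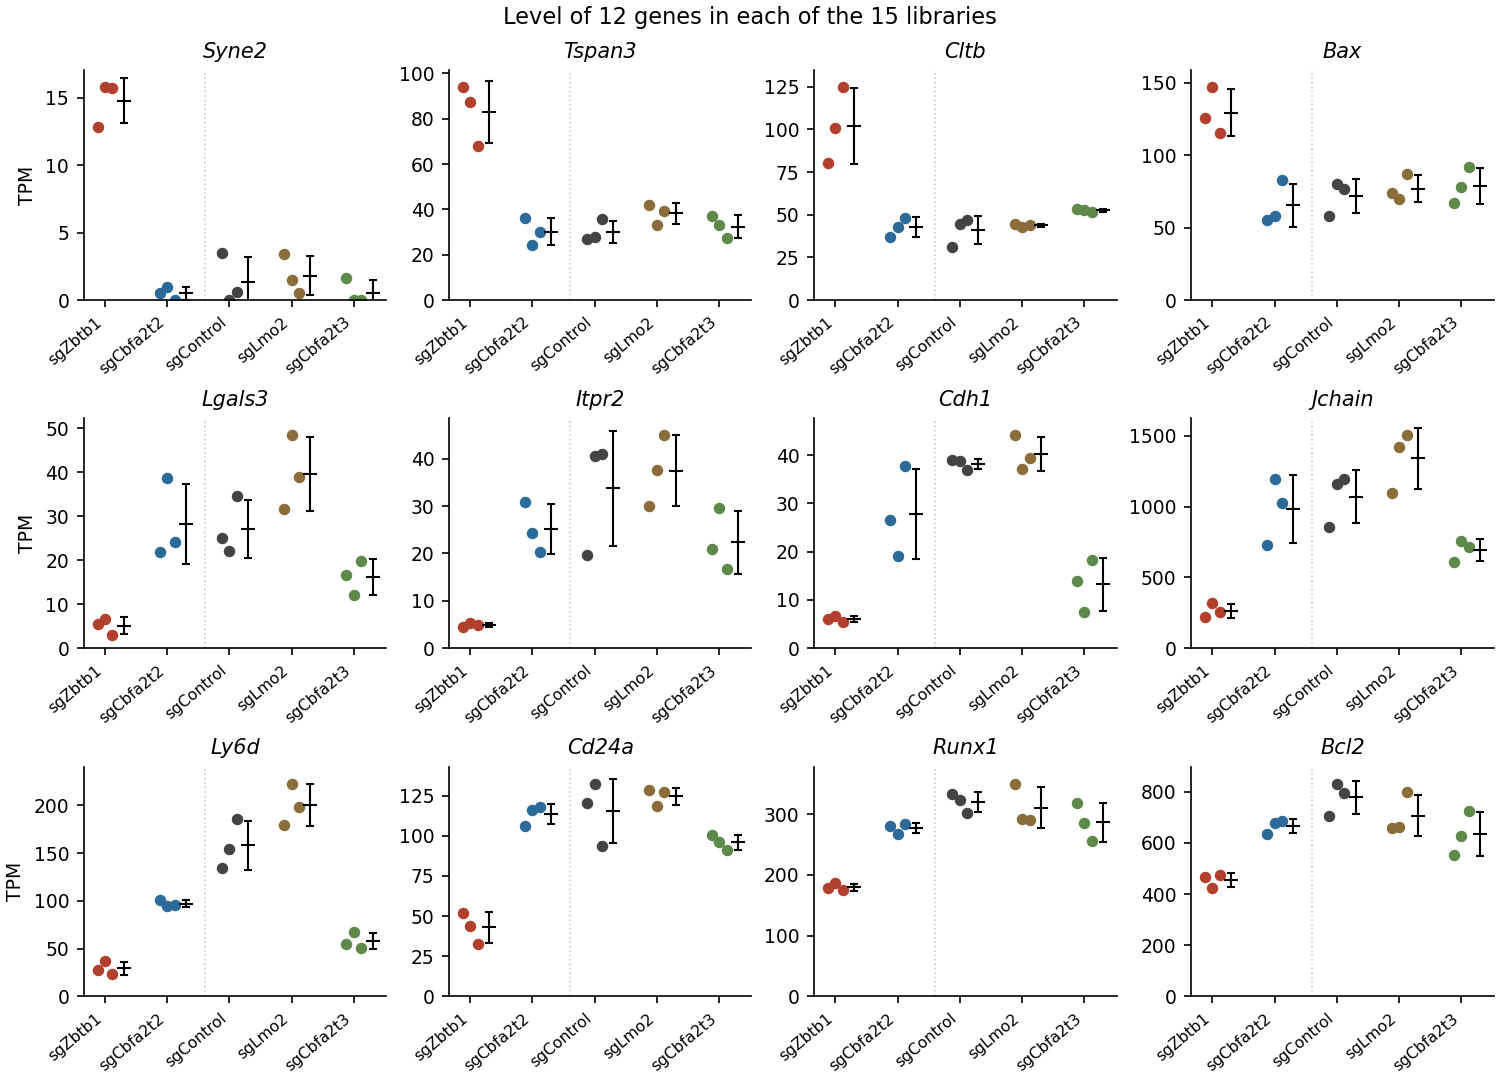
TPM of 12 of the named genes, chosen after their values were seen, in the 15 libraries, with 1 point per library and bars for the mean ± SD (n = 3) of each group, each panel on its own linear axis from 0. The dotted line parts the 6 libraries compared from the 9 that the test did not use, and in all 12 panels the sgZbtb1 points lie above or below the other 12 points. Over the 309 calls, the sgZbtb1 libraries lay outside the 9 on the side of the call in 54.0%.

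The 9 libraries that the test did not use (sgControl, sgLmo2 and sgCbfa2t3) were set beside the groups for each call. Of the 105 genes that were higher in sgZbtb1, all 3 sgZbtb1 libraries lay above all 9 in 59 (56.2%), while all 3 sgCbfa2t2 libraries lay below all 9 in 1 (0.952%). Of the 204 lower genes, the sgZbtb1 libraries lay below all 9 in 108 (52.9%) and the sgCbfa2t2 libraries above all 9 in 4 (1.96%). Over all genes tested, the sgZbtb1 libraries were above the 9 in 2.33% and below in 2.62%, and the sgCbfa2t2 libraries above in 0.516% and below in 0.411%. Under the 14 alternatives the sgZbtb1 share was between 53.4% and 68.5% among the higher genes and between 50.0% and 75.3% among the lower genes, and the sgCbfa2t2 share stayed at or under 2.76%. In 137 of the 309 calls neither group lay outside the 9. The sgControl mean was nearer to the sgCbfa2t2 than to the sgZbtb1 mean on the log2 scale in 95 of the 105 (90.5%) and 174 of the 204 (85.3%). The same was found in 58.0% and 57.6% of all genes with a difference of the same sign.

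The 5 genes in which the sgCbfa2t2 libraries lay outside the 9 are named after their values were seen. *Kif2a*, a microtubule depolymerase, was lower in sgCbfa2t2 than in sgZbtb1, and *Ccr7*, *Laptm4a*, *Ciao2a* and *Rpl39* were higher. *Ccr7*, the receptor for CCL19 and CCL21, was at 15.1, 11.5 and 11.3 TPM in sgZbtb1 and 26.1, 28.2 and 27.5 TPM in sgCbfa2t2 and at 19.2, 18.5 and 17.6 TPM in sgControl (log2 difference -1.06, SE 0.28, limma adjusted p = 0.0135). *Kif2a* was at 161, 153 and 173 TPM in sgZbtb1 and 124, 123 and 116 TPM in sgCbfa2t2 and at 131, 158 and 127 TPM in sgControl (log2 difference 0.42, SE 0.12, limma adjusted p = 0.0349). Each of the 6 libraries ended at least 2 of these 5 calls when it was left out (adjusted p from 0.0531 to 0.203), and each of the 5 calls was lost without at least 3 of the libraries.

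**Figure D3:**
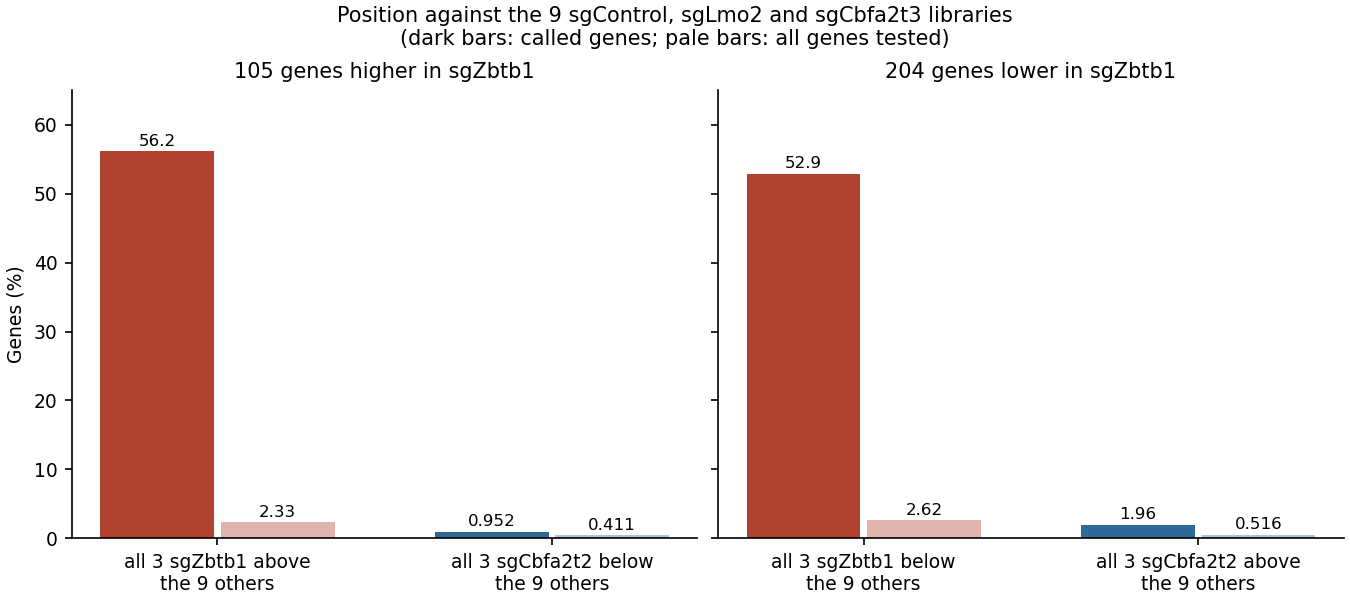
Share of genes (%) in which all 3 sgZbtb1 or all 3 sgCbfa2t2 libraries lay outside the 9 sgControl, sgLmo2 and sgCbfa2t3 libraries, for the 105 higher (left) and 204 lower (right) genes in dark and all genes tested in pale colour. The sgZbtb1 bars stand at 56.2% and 52.9% and the sgCbfa2t2 bars at 0.952% and 1.96%.

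Among surface and signaling genes of T cells, all calls were on the lower side. Of 20 tested genes of this list, 5 were lower in sgZbtb1 (25%, against 1.78% of all genes) and 15 did not pass, with a median log2 difference of -0.34 (-0.03 over all genes). The members of this list and of the lists below were chosen with earlier results of these data known. Their shares beside those of all genes are a description and not an independent test. *Thy1*, a surface glycoprotein of T cells and progenitors, was at 195, 137 and 137 TPM in sgZbtb1 and 293, 283 and 248 TPM in sgCbfa2t2 (log2 difference -0.83, SE 0.11, limma adjusted p = 2.13e-08). *Lck*, the kinase that starts T-cell receptor signaling, was at 56.4, 40.2 and 39.8 TPM in sgZbtb1 and 74.5, 71.1 and 80.7 TPM in sgCbfa2t2 (log2 difference -0.74, SE 0.17, limma adjusted p = 0.00296). *Txk*, a Tec family kinase, was at 10.1, 13.4 and 4.42 TPM in sgZbtb1 and 27.1, 27.2 and 40.6 TPM in sgCbfa2t2 (log2 difference -1.75, SE 0.30, limma adjusted p = 1.91e-05). In these 3 genes the sgZbtb1 libraries were below the sgCbfa2t2 libraries without overlap. *Cd7*, an immunoglobulin family receptor of T and NK cells, was at 1.12, 0.956 and 4.91 TPM in sgZbtb1 and 5.85, 18.1 and 15.5 TPM in sgCbfa2t2 (log2 difference -2.15, SE 0.47, limma adjusted p = 0.00126). *Cd163l1*, a scavenger receptor of γδ T cells, was at 2.23, 0 and 0.491 TPM in sgZbtb1 and 10.1, 3.34 and 9.18 TPM in sgCbfa2t2 (log2 difference -2.22, SE 0.55, limma adjusted p = 0.00721). Both were near the floor in most sgZbtb1 libraries. The *Cd7* call was lost without sgCbfa2t2 replicate 2 (adjusted p = 0.0772). The *Cd163l1* call was lost without sgCbfa2t2 replicate 1 or 3 or sgZbtb1 replicate 2 (adjusted p from 0.064 to 0.1) and with DESeq2.

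Of 8 tested genes of the NK and innate lymphoid list, 4 were lower in sgZbtb1 (50%, against 1.78% of all genes) and 4 did not pass, with a median log2 difference of -0.59. *Il2rb*, the β chain of the IL-2 and IL-15 receptors, was at 18.99, 13.9 and 8.84 TPM in sgZbtb1 and 27.7, 43.9 and 31.9 TPM in sgCbfa2t2 (log2 difference -1.29, SE 0.27, limma adjusted p = 0.000776). *Id2*, an inhibitor of E proteins that innate lymphoid cells require, was at 81, 129 and 103 TPM in sgZbtb1 and 133, 181 and 178 TPM in sgCbfa2t2 (log2 difference -0.66, SE 0.13, limma adjusted p = 0.000319). Both were lower in all 3 sgZbtb1 libraries, and *Id2* had the narrower gap. *Nfil3*, a transcription factor of early innate lymphoid development, was at 10.1, 14.8 and 8.35 TPM in sgZbtb1 and 22.4, 35.3 and 21.3 TPM in sgCbfa2t2 (log2 difference -1.18, SE 0.30, limma adjusted p = 0.00928). *Nkg7*, a protein of cytotoxic granules, was at 2.23, 0.478 and 0 TPM in sgZbtb1 and 5.32, 8.59 and 5.80 TPM in sgCbfa2t2 (log2 difference -2.14, SE 0.55, limma adjusted p = 0.0113). The 4 calls became 1 without sgCbfa2t2 replicate 2, 2 without sgZbtb1 replicate 3 and 2 with DESeq2. The *Il2rb* call was lost without sgCbfa2t2 replicate 2 (adjusted p = 0.0553). The *Nfil3* call was lost without sgCbfa2t2 replicate 2 or sgZbtb1 replicate 3 (adjusted p from 0.0811 to 0.204) and with DESeq2. The *Nkg7* call was lost without sgCbfa2t2 replicate 2 or sgZbtb1 replicate 3 (adjusted p from 0.0984 to 0.141) and with DESeq2. In bulk samples fewer cells of a type and less RNA per cell cannot be told apart.

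The adhesion and cell surface list had 8 lower genes of 33 tested (24.2%, against 1.78% of all genes), and 25 did not pass (median -0.37). Besides *Cdh1*, *Cd163l1* and *Ccr7* above and *Ly6d* and *Cd24a* below, they included *Ccr9*, the receptor for the thymic chemokine CCL25. *Ccr9* was at 308, 378 and 392 TPM in sgZbtb1 and 509.8, 680.0 and 764 TPM in sgCbfa2t2 (log2 difference -0.84, SE 0.10, limma adjusted p = 1.41e-11). In sgControl it was at 855, 909.9 and 1003 TPM, above both groups. Of 16 tested B-lineage genes 3 were lower, 2 were higher and 11 did not pass (31.2% called, against 2.70% of all genes, median -0.35). *Ly6d* (ENSMUSG00000034634, chr15:74762056-74763620 on the minus strand of mm10), a surface protein that marks lymphoid progenitors biased to the B lineage, was at 27.9, 36.8 and 23.6 TPM in sgZbtb1 and 101, 94.5 and 95.6 TPM in sgCbfa2t2 (log2 difference -1.71, SE 0.18, limma adjusted p = 1.59e-13). *Cd24a*, the heat-stable antigen, was at 51.95, 43.99 and 32.9 TPM in sgZbtb1 and 106, 116 and 118 TPM in sgCbfa2t2 (log2 difference -1.40, SE 0.16, limma adjusted p = 1.37e-11). *Ighm*, the μ heavy chain, was at 189, 206 and 227 TPM in sgZbtb1 and 272, 362 and 370.5 TPM in sgCbfa2t2 (log2 difference -0.68, SE 0.11, limma adjusted p = 1.05e-06). These 3 were lower in sgZbtb1 without overlap, with means that differed by 3.30-fold, 2.64-fold and 1.62-fold. *Cd93*, a surface glycoprotein of early B-lineage cells, was higher, at 314, 355 and 319.7 TPM in sgZbtb1 and 251, 272 and 261 TPM in sgCbfa2t2 (log2 difference 0.33, SE 0.10, limma adjusted p = 0.0433). *Pou2f2*, which encodes Oct2, was also higher, at 58.1, 89.4 and 65.8 TPM in sgZbtb1 and 47.9, 51.1 and 40.1 TPM in sgCbfa2t2 (log2 difference 0.59, SE 0.17, limma adjusted p = 0.0372). The *Cd93* call was lost whichever library was left out (adjusted p from 0.0568 to 0.305) and with all genes above 0 or a pseudocount of 0.1. The *Pou2f2* call was lost without sgCbfa2t2 replicate 1 or 3 or sgZbtb1 replicate 2 or 3 (adjusted p from 0.0666 to 0.421) and with DESeq2, all 15 libraries in one fit or a pseudocount of 0.1. The 11 genes of the lymphoid progenitor list all missed the adjusted threshold in limma, edgeR and DESeq2 (4 at an unadjusted p under 0.05, median -0.09). Of all genes 2.70% passed in limma and 13.2% had an unadjusted p under 0.05. The list had 1 higher call without sgCbfa2t2 replicate 1, and 1 lower call without sgCbfa2t2 replicate 3 or sgZbtb1 replicate 1. Of these 11 genes *Cd34* was at 361, 378 and 367 TPM in sgZbtb1 and 359, 284 and 282 TPM in sgCbfa2t2 (log2 difference 0.27, SE 0.10, limma adjusted p = 0.148).

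**Figure D4:**
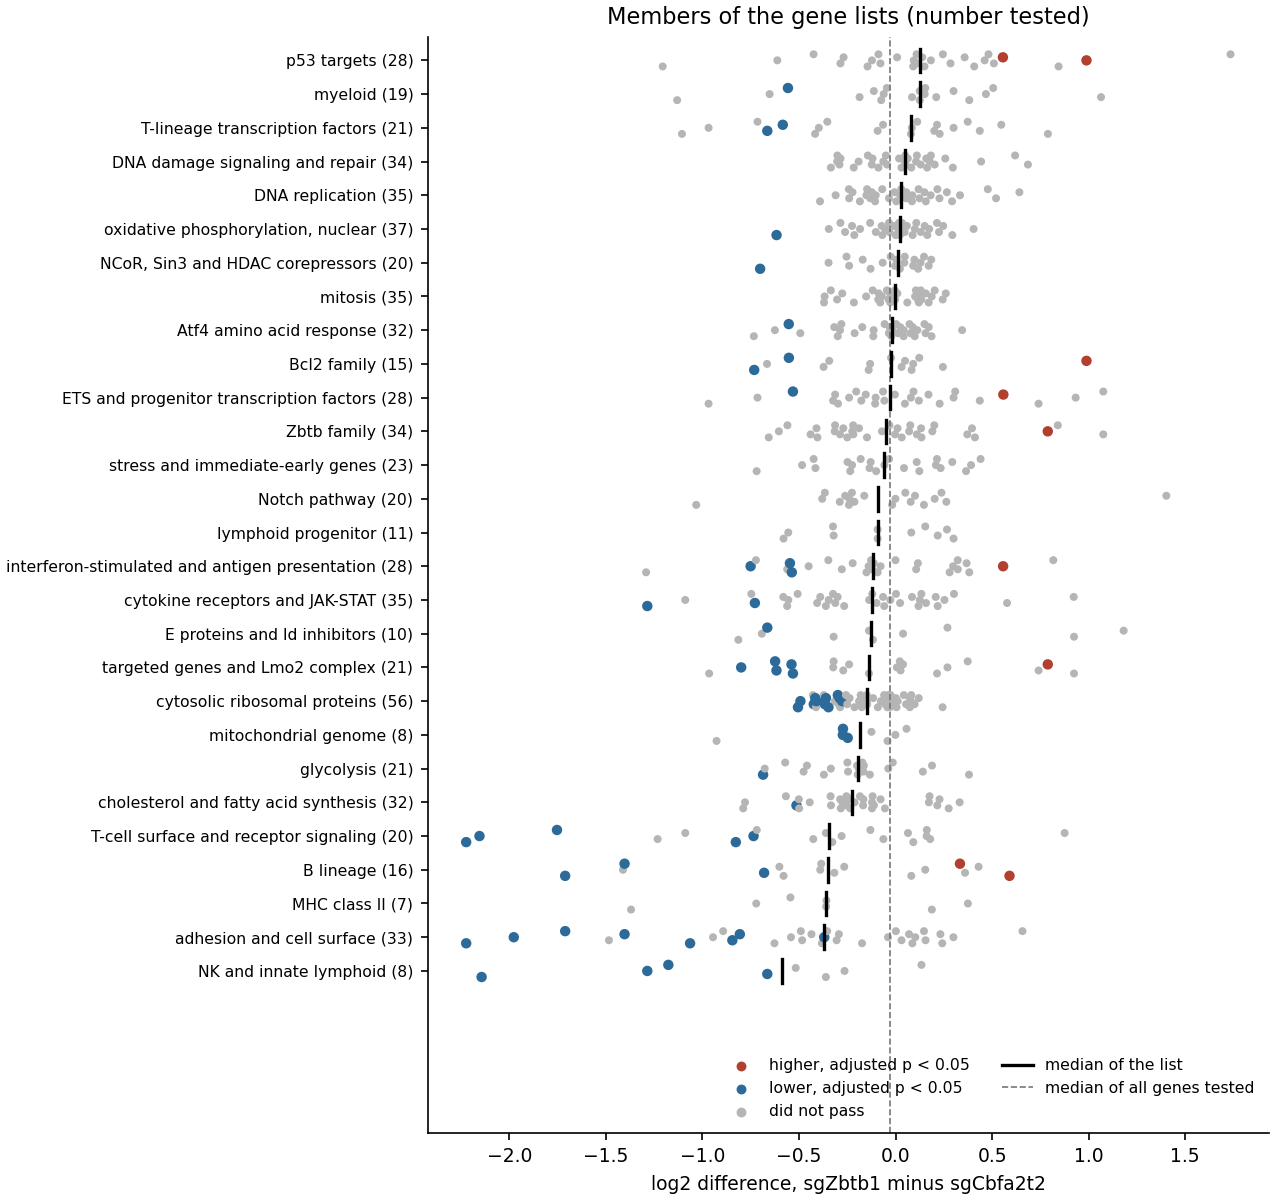
Log2 difference (sgZbtb1 minus sgCbfa2t2) of each tested member of those of the 30 gene lists that had at least 7 tested members, with calls at an adjusted p under 0.05 in colour, the median of each list as a black bar and that of all genes (-0.03) as a dashed line. Of the lists drawn, NK and innate lymphoid has the lowest median (-0.59), and the p53 and myeloid lists have the highest (both 0.13), and the ribosome biogenesis and hypoxia lists are not drawn.

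Of 21 tested genes of the *Lmo2* complex list, which also holds the targeted genes, 5 were lower, *Zbtb1* was higher and 15 did not pass (28.6% called, against 2.70% of all genes, median -0.14). *Runx1* (ENSMUSG00000022952, chr16:92601466-92826149 on the minus strand of mm10), a core factor of hematopoiesis and the fusion partner of an ETO protein in leukemia, was at 178, 186 and 175 TPM in sgZbtb1 and 280.5, 268 and 284 TPM in sgCbfa2t2. In sgControl it was at 334, 324 and 303 TPM. The sgZbtb1 and sgCbfa2t2 libraries did not overlap, and their means differed by 1.54-fold (log2 difference -0.62, SE 0.11, limma adjusted p = 1.24e-05). *Cbfa2t3* was at 171, 192 and 135 TPM in sgZbtb1 and 232, 222 and 266 TPM in sgCbfa2t2 (log2 difference -0.54, SE 0.11, limma adjusted p = 0.00087). *Lmo4*, a relative of *Lmo2*, was at 122, 168 and 173 TPM in sgZbtb1 and 181, 256 and 278 TPM in sgCbfa2t2 (log2 difference -0.62, SE 0.12, limma adjusted p = 0.000222). The *Lmo4* groups came close, with the highest sgZbtb1 value just under the lowest sgCbfa2t2 value. *Fli1*, an ETS factor, was at 84.4, 109 and 88.4 TPM in sgZbtb1 and 126, 147 and 134 TPM in sgCbfa2t2 (log2 difference -0.53, SE 0.13, limma adjusted p = 0.00803), and *Runx2*, a relative of *Runx1*, at 20.1, 24.4 and 24.1 TPM in sgZbtb1 and 37.8, 46.8 and 37.2 TPM in sgCbfa2t2 (log2 difference -0.80, SE 0.22, limma adjusted p = 0.0249). *Lmo2* itself overlapped between the groups, at 15.6, 11.95 and 21.6 TPM in sgZbtb1 and 19.2, 18.6 and 19.3 TPM in sgCbfa2t2 (log2 difference -0.24, SE 0.29, limma adjusted p = 0.789). The 6 calls became 3 without sgZbtb1 replicate 3. The *Cbfa2t3* call was lost without sgZbtb1 replicate 3 (adjusted p = 0.0824). The *Fli1* call was lost without sgCbfa2t2 replicate 2 or sgZbtb1 replicate 1 or 3 (adjusted p from 0.0659 to 0.0977) and with DESeq2. The *Runx2* call was lost without sgCbfa2t2 replicate 1 or 2 or sgZbtb1 replicate 1 or 3 (adjusted p from 0.0551 to 0.209) and with DESeq2.

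*Bcl11b*, a zinc finger factor of T-lineage commitment, was at 5.59, 4.30 and 5.89 TPM in sgZbtb1 and 24.5, 6.20 and 12.1 TPM in sgCbfa2t2 and at 24.4, 20.3 and 18.8 TPM in sgControl. All 3 sgZbtb1 libraries were below the 3 sgCbfa2t2 libraries, which varied widely, and the difference did not pass (log2 difference -1.11, SE 0.40, limma adjusted p = 0.138). It passed without sgCbfa2t2 replicate 2 (log2 difference -1.55, limma adjusted p = 0.0408). The exact two-sided permutation p was 0.1, the smallest that 3 against 3 can give, and it is the same for every gene without overlap, called or not. *Tcf7*, which encodes TCF1, an early target of Notch, was at 1.68, 0.478 and 0.491 TPM in sgZbtb1 and 1.06, 1.43 and 1.45 TPM in sgCbfa2t2. These are 3 reads or fewer in each library, and no difference was detectable at this depth (log2 difference -0.35, SE 0.65, limma adjusted p = 0.879). *Bcl11a*, a factor of lymphoid progenitors and B cells, was at 23.5, 32.5 and 19.1 TPM in sgZbtb1 and 34.6, 34.4 and 28.98 TPM in sgCbfa2t2 (log2 difference -0.40, SE 0.23, limma adjusted p = 0.478). *Gata3*, a T-lineage factor, was at 40.8, 43.03 and 24.1 TPM in sgZbtb1 and 22.4, 23.4 and 36.2 TPM in sgCbfa2t2 (log2 difference 0.37, SE 0.23, limma adjusted p = 0.506). The groups overlapped in both. Of 21 tested T-lineage transcription factors, *Id2* and *Tox* were lower and 19 did not pass (9.52% called, against 2.70% of all genes, median 0.08). *Tox*, an HMG box factor of T and innate lymphoid development, was at 67.04, 74.6 and 73.2 TPM in sgZbtb1 and 104, 101 and 118 TPM in sgCbfa2t2 (log2 difference -0.58, SE 0.14, limma adjusted p = 0.00638). The *Tox* call was lost without sgCbfa2t2 replicate 3 (adjusted p = 0.0625). The 20 tested Notch pathway genes all missed the adjusted threshold in limma, edgeR and DESeq2 (3 at an unadjusted p under 0.05, median -0.09). Of all genes 2.70% passed in limma and 13.2% had an unadjusted p under 0.05. *Notch1* was at 131, 129 and 112 TPM in sgZbtb1 and 168, 135 and 145 TPM in sgCbfa2t2 (log2 difference -0.26, SE 0.12, limma adjusted p = 0.332).

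Among 28 tested ETS and progenitor transcription factors, *Fli1* was lower, *Elk3* was higher and 26 did not pass (7.14% called, against 2.70% of all genes, median -0.03). *Elk3*, an ETS factor, was at 79.3, 63.6 and 65.8 TPM in sgZbtb1 and 49.5, 44.9 and 45.9 TPM in sgCbfa2t2 (log2 difference 0.56, SE 0.17, limma adjusted p = 0.0474). The *Elk3* call was lost whichever library was left out (adjusted p from 0.0685 to 0.264) and with DESeq2, all 15 libraries in one fit or a pseudocount of 0.1. *Id2* was the single call of 10 tested E proteins and Id inhibitors, and 9 did not pass (10% called, against 2.70% of all genes, median -0.13). *Lyl1*, a bHLH partner of E proteins, was at 232, 239.5 and 213 TPM in sgZbtb1 and 197, 176 and 195 TPM in sgCbfa2t2 (log2 difference 0.27, SE 0.11, limma adjusted p = 0.214). *Zbtb1* was the single call among 34 tested Zbtb family genes (2.94%, near the 2.70% of all genes, median -0.05). Of 20 tested genes of the NCoR, Sin3 and HDAC corepressors, with which the ETO family works, *Hdac5* was lower (5%, against 1.78% of all genes) and 19 did not pass (median 0.01). *Hdac5*, a histone deacetylase, was at 24.02, 32.5 and 34.9 TPM in sgZbtb1 and 47.9, 49.6 and 51.2 TPM in sgCbfa2t2 (log2 difference -0.70, SE 0.20, limma adjusted p = 0.0317). The *Hdac5* call was lost without sgCbfa2t2 replicate 1, 2 or 3 or sgZbtb1 replicate 1 or 2 (adjusted p from 0.0528 to 0.213) and with DESeq2. *Ncor1*, the corepressor NCoR, was at 588, 623 and 542 TPM in sgZbtb1 and 618, 547 and 618 TPM in sgCbfa2t2 (log2 difference -0.03, SE 0.09, limma adjusted p = 0.942).

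*Bax*, the pro-apoptotic pore former of mitochondria and a p53 target, was at 126, 147 and 115 TPM in sgZbtb1 and 55.3, 58.2 and 82.6 TPM in sgCbfa2t2 (log2 difference 0.99, SE 0.15, limma adjusted p = 2.11e-07). *Cdkn1a*, which encodes the cell cycle inhibitor p21 and is also a p53 target, was at 697, 715 and 623 TPM in sgZbtb1 and 404, 476 and 507 TPM in sgCbfa2t2 (log2 difference 0.56, SE 0.09, limma adjusted p = 2.24e-06). *Bcl2*, which counters *Bax*, was at 467, 423 and 475 TPM in sgZbtb1 and 637, 678 and 686 TPM in sgCbfa2t2 (log2 difference -0.55, SE 0.09, limma adjusted p = 1.75e-06), and at 706, 832 and 797 TPM in sgControl. The groups did not overlap in any of the 3 genes, and the mean of *Bax* was 1.98-fold higher in sgZbtb1. *Bax* and *Cdkn1a* were the calls among 28 tested p53 targets, of which 26 did not pass (7.14% called, against 2.70% of all genes, median 0.13). Of 15 tested *Bcl2* family genes, *Bax* was higher, *Bcl2* and *Bnip3* were lower and 12 did not pass (20% called, against the same 2.70%, median -0.02). *Bnip3*, a mitochondrial protein induced by hypoxia, was at 55.9, 53.5 and 40.8 TPM in sgZbtb1 and 70.2, 113 and 71.97 TPM in sgCbfa2t2 (log2 difference -0.73, SE 0.17, limma adjusted p = 0.00254). The *Bnip3* call was lost without sgCbfa2t2 replicate 2 or sgZbtb1 replicate 3 (adjusted p from 0.0742 to 0.2). The 34 tested genes of DNA damage signaling and repair all missed the adjusted threshold in limma, edgeR and DESeq2 (1 at an unadjusted p under 0.05, median 0.05). So did the 35 tested DNA replication genes in the same tools (5 at an unadjusted p under 0.05, median 0.03). The 35 tested mitosis genes missed it in limma and edgeR, with 1 call in DESeq2 (4 at an unadjusted p under 0.05, median -0.003). Of all genes 2.70% passed in limma and 13.2% had an unadjusted p under 0.05. *Top2a*, a topoisomerase of dividing cells, was at 2248, 2354 and 2332 TPM in sgZbtb1 and 1921, 1960.4 and 2220.5 TPM in sgCbfa2t2 (log2 difference 0.19, SE 0.07, limma adjusted p = 0.19).

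Of 35 tested cytokine receptor and JAK-STAT genes, *Il2rb* and *Pim2* were lower and 33 did not pass (5.71% called, against 2.70% of all genes, median -0.12). *Pim2*, a survival kinase induced by cytokines, was at 84.9, 116 and 101 TPM in sgZbtb1 and 119, 208 and 185 TPM in sgCbfa2t2 (log2 difference -0.73, SE 0.13, limma adjusted p = 7.26e-05). *Il7r*, the receptor for the IL-7 in the medium, overlapped between the groups, at 158, 167 and 143 TPM in sgZbtb1 and 118, 149 and 135 TPM in sgCbfa2t2 (log2 difference 0.22, SE 0.12, limma adjusted p = 0.444). The *Il2rb* call was lost without sgCbfa2t2 replicate 2 (adjusted p = 0.0553).

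Of 28 tested interferon and antigen presentation genes 3 were lower, 1 was higher and 24 did not pass (14.3% called, against 2.70% of all genes, median -0.12). *H2-K1*, an MHC class I heavy chain, was at 126, 128 and 139 TPM in sgZbtb1 and 193, 238 and 235 TPM in sgCbfa2t2 (log2 difference -0.75, SE 0.12, limma adjusted p = 9.7e-07). *H2-D1*, another heavy chain, was at 208, 196 and 191 TPM in sgZbtb1 and 267, 331 and 270.0 TPM in sgCbfa2t2 (log2 difference -0.54, SE 0.11, limma adjusted p = 0.000293). Both were lower in sgZbtb1 without overlap. Class I genes are close copies of each other, so that the counting could split reads between them. *Tap2*, which carries peptides to class I molecules, was at 321, 188 and 187 TPM in sgZbtb1 and 303, 324 and 359 TPM in sgCbfa2t2, with 1 high sgZbtb1 library among the sgCbfa2t2 values (log2 difference -0.55, SE 0.11, limma adjusted p = 0.000518). *Bst2*, which encodes tetherin, was higher, at 224, 195 and 207 TPM in sgZbtb1 and 152, 115 and 161 TPM in sgCbfa2t2 (log2 difference 0.56, SE 0.12, limma adjusted p = 0.000883). The *Tap2* call was lost without sgZbtb1 replicate 3 (adjusted p = 0.0676) and with DESeq2. The *Bst2* call was lost without sgCbfa2t2 replicate 2 (adjusted p = 0.0632). The 7 tested MHC class II genes all missed the adjusted threshold in limma, edgeR and DESeq2 (2 at an unadjusted p under 0.05, median -0.36). Of all genes 2.70% passed in limma and 13.2% had an unadjusted p under 0.05.

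Of 56 tested genes of cytosolic ribosomal proteins 11 were lower (19.6%, against 1.78% of all genes) and 45 did not pass, with small log2 differences (from -0.51 to 0.24, median -0.15). Among the lower genes were *Rps27*, *Rps4x*, *Rps23*, *Rpl19* and *Rps18*. *Rps27* was at 476, 470.5 and 446 TPM in sgZbtb1 and 627, 759 and 602 TPM in sgCbfa2t2 (log2 difference -0.51, SE 0.09, limma adjusted p = 2.48e-05). *Rps18* was at 483, 449.9 and 498 TPM in sgZbtb1 and 626, 695 and 534 TPM in sgCbfa2t2 (log2 difference -0.37, SE 0.09, limma adjusted p = 0.00633). In both, sgCbfa2t2 replicate 2 was the highest of the 6 libraries. The 11 calls became 1 without sgCbfa2t2 replicate 2, 2 without sgZbtb1 replicate 2, 4 without sgZbtb1 replicate 3, 6 without sgCbfa2t2 replicate 1 and 3 with DESeq2. With median-of-ratios size factors 7 were lower and 1 was higher. These genes and *Gapdh* below are known to have many processed pseudogenes, with which the counting could split reads, and this was not measured here.

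Of 8 tested genes of the mitochondrial genome, *mt-Nd1*, *mt-Cytb* and *mt-Nd4* were lower (37.5%, against 1.78% of all genes) and 5 did not pass (median -0.19). The mRNA of *mt-Nd1*, a subunit of complex I, was at 4237, 3508 and 3927 TPM in sgZbtb1 and 5050.5, 4642 and 4385 TPM in sgCbfa2t2 (log2 difference -0.27, SE 0.07, limma adjusted p = 0.0143). None of the 3 calls held with DESeq2, with all genes above 0, or without sgCbfa2t2 replicate 1, sgZbtb1 replicate 2 or sgZbtb1 replicate 3 (adjusted p from 0.0757 to 0.539 without a library). Of 37 tested nuclear genes of oxidative phosphorylation *Sdhd*, a subunit of complex II, was lower and 36 did not pass (2.70% called, as over all genes, median 0.02). *Sdhd* was at 70.4, 32.99 and 45.2 TPM in sgZbtb1 and 61.2, 119 and 53.1 TPM in sgCbfa2t2 (log2 difference -0.62, SE 0.19, limma adjusted p = 0.046). The *Sdhd* call was lost without sgCbfa2t2 replicate 2 or sgZbtb1 replicate 2 or 3 (adjusted p from 0.183 to 0.683) and with DESeq2, all 15 libraries in one fit, a mean above 10 TPM required, median-of-ratios size factors or a pseudocount of 0.1. The glycolysis list had 1 lower gene of 21 tested (4.76%, against 1.78% of all genes), with 18 of the 21 log2 differences below 0 (median -0.20), as were 6151 of all 11443. This was *Gapdh*, at 63.1, 52.6 and 59.4 TPM in sgZbtb1 and 97.4, 114 and 75.4 TPM in sgCbfa2t2 (log2 difference -0.69, SE 0.16, limma adjusted p = 0.00226). The *Gapdh* call was lost without sgCbfa2t2 replicate 2 (adjusted p = 0.106).

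Among 32 tested genes of cholesterol and fatty acid synthesis, *Hmgcs1*, an early enzyme of the mevalonate pathway, was lower and 31 did not pass (3.12% called, near the 2.70% of all genes). Of the 32 log2 differences 26 were below 0 (median -0.22), as were 6151 of all 11443. *Hmgcs1* was at 129.6, 126 and 132 TPM in sgZbtb1 and 189, 176 and 189 TPM in sgCbfa2t2, without overlap (log2 difference -0.51, SE 0.12, limma adjusted p = 0.00292). Of 32 tested genes of the *Atf4* amino acid response *Slc1a5*, a glutamine transporter, was lower and 31 did not pass (3.12% called, near the 2.70% of all genes, median -0.02). *Slc1a5* was at 78.8, 99.9 and 60.9 TPM in sgZbtb1 and 112, 125 and 110.1 TPM in sgCbfa2t2 (log2 difference -0.55, SE 0.14, limma adjusted p = 0.0123). The *Slc1a5* call was lost without sgCbfa2t2 replicate 2 or sgZbtb1 replicate 3 (adjusted p from 0.115 to 0.278) and with DESeq2. Its list had 2 calls, 1 higher and 1 lower, with edgeR, with median-of-ratios size factors and without sgCbfa2t2 replicate 3 or sgZbtb1 replicate 2. The 23 tested stress and immediate-early genes missed the adjusted threshold in limma and edgeR, with 1 call in DESeq2 (3 at an unadjusted p under 0.05, median -0.06). Of all genes 2.70% passed in limma and 13.2% had an unadjusted p under 0.05. *Hsp90aa1*, a chaperone, was at 1350.3, 1361 and 1355 TPM in sgZbtb1 and 1187, 1139.6 and 1132 TPM in sgCbfa2t2 (log2 difference 0.23, SE 0.08, limma adjusted p = 0.0814).

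Markers of other cells that the culture could hold were followed as lists. Of 28 OP9 stroma genes found in the table, 16 were at 0 and 24 at 3 reads or fewer in all 6 libraries. The 2 tested, *Tpm2* and *Pdgfrb*, missed the adjusted threshold in limma, edgeR and DESeq2 (1 at an unadjusted p under 0.05, which 13.2% of all genes had). *Pdgfrb*, a growth factor receptor of stromal cells, was at 6.14, 0.478 and 1.47 TPM in sgZbtb1 and 9.58, 3.34 and 7.73 TPM in sgCbfa2t2 (log2 difference -1.31, SE 0.51, limma adjusted p = 0.186), and it was lower in sgZbtb1 without sgZbtb1 replicate 1 (log2 difference -1.95, limma adjusted p = 0.0401). The summed level of the list was 104 to 115 TPM in sgZbtb1 and 115 to 134 TPM in sgCbfa2t2. Nearly all of it was *Tpm2*, a tropomyosin, at 98.3, 110.0 and 104 TPM in sgZbtb1 and 106, 106 and 125 TPM in sgCbfa2t2. Of 19 tested myeloid genes *Tyrobp*, the signaling adaptor DAP12, was lower (5.26%, against 1.78% of all genes) and 18 did not pass (median 0.13). *Tyrobp* was at 132, 104 and 116 TPM in sgZbtb1 and 172, 191 and 156 TPM in sgCbfa2t2 (log2 difference -0.56, SE 0.12, limma adjusted p = 0.00161). The summed level of the myeloid list was 1089 to 1154 TPM in sgZbtb1 and 1081 to 1189 TPM in sgCbfa2t2. Of 18 erythroid and megakaryocyte genes 10 were at 0 and 13 at 3 reads or fewer in all 6 libraries. The 2 tested, *Tfrc* and *Hbb-bt*, missed the adjusted threshold in limma, edgeR and DESeq2 (1 at an unadjusted p under 0.05, which 13.2% of all genes had). Without sgZbtb1 replicate 1 this list had 1 lower call. The part of such cells in the differences above was not tested.

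Of 7 long noncoding RNAs that were called, the 4 with the largest differences at more than 10 TPM are given. *H19*, an imprinted transcript, was at 8.94, 5.26 and 10.3 TPM in sgZbtb1 and 33.5, 70.2 and 47.8 TPM in sgCbfa2t2 and at 41.2, 72.3 and 54.5 TPM in sgControl. The sgZbtb1 libraries were below all the others, and their mean was 6.18-fold lower than that of sgCbfa2t2 (log2 difference -2.47, SE 0.28, limma adjusted p = 1.31e-11). *Gm34680* was at 58.7, 63.1 and 55.98 TPM in sgZbtb1 and 91.5, 128 and 112 TPM in sgCbfa2t2, without overlap (log2 difference -0.87, SE 0.15, limma adjusted p = 1.24e-05). *Snhg6*, a host of small nucleolar RNAs, was at 58.1, 24.4 and 26.5 TPM in sgZbtb1 and 68.1, 75.9 and 45.9 TPM in sgCbfa2t2, with an overlap (log2 difference -0.86, SE 0.20, limma adjusted p = 0.00333). *Gm17745* was higher in sgZbtb1, at 17.3, 9.56 and 11.8 TPM in sgZbtb1 and 7.98, 1.91 and 3.38 TPM in sgCbfa2t2 (log2 difference 1.48, SE 0.42, limma adjusted p = 0.0278). The *Snhg6* call was lost without sgCbfa2t2 replicate 2 or sgZbtb1 replicate 2 or 3 (adjusted p from 0.0851 to 0.118) and with DESeq2. The *Gm17745* call was lost without sgCbfa2t2 replicate 2 or 3 or sgZbtb1 replicate 1 or 3 (adjusted p from 0.0776 to 0.241) and with DESeq2, all genes above 0 or a pseudocount of 0.1.

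The constant regions of the T-cell receptor γ chain were also called and are named after their values were seen. *Tcrg-C4* was at 209, 209.9 and 241 TPM in sgZbtb1 and 338, 367 and 313 TPM in sgCbfa2t2 (log2 difference -0.62, SE 0.10, limma adjusted p = 4.15e-06). *Tcrg-C1* was at 370.4, 387 and 357 TPM in sgZbtb1 and 465, 558 and 492 TPM in sgCbfa2t2 (log2 difference -0.44, SE 0.09, limma adjusted p = 0.000833), and *Tcrg-C2* at 746, 694 and 706 TPM in sgZbtb1 and 837, 962 and 895 TPM in sgCbfa2t2 (log2 difference -0.33, SE 0.08, limma adjusted p = 0.00928). All 3 were lower in sgZbtb1. These segments are similar in sequence, so that the counting could split reads between them. The *Tcrg-C2* call was lost without sgCbfa2t2 replicate 2 or sgZbtb1 replicate 2 or 3 (adjusted p from 0.0664 to 0.0851).

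The ChIP-seq lists of these progenitors hold 5898 Zbtb1 peaks and 6077 Cbfa2t3 peaks, each with its nearest gene, and peaks of the Cbfa2t2 protein were not analysed here. A Zbtb1 peak was assigned to 46 of the 105 genes that were higher in sgZbtb1 (43.8%), to 91 of the 204 lower genes (44.6%) and to 27.5% of all genes tested. For Zbtb1 peaks at promoters these shares were 28 of 105 (26.7%), 28 of 204 (13.7%) and 12.5% of all genes. A Cbfa2t3 peak was assigned to 28 of the 105 (26.7%), 95 of the 204 (46.6%) and 21% of all genes. Under the 14 alternatives the Zbtb1 share was between 43.5% and 51.5% among higher and between 41.6% and 49.4% among lower genes. The Cbfa2t3 share was between 21.1% and 33.3% among higher and between 42.5% and 52.8% among lower genes. The level of the called genes was also higher, with a median of 91.7 TPM for the higher, 63.4 TPM for the lower and 25.6 TPM for all genes. Its part in these shares was not tested.

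**Figure D5:**
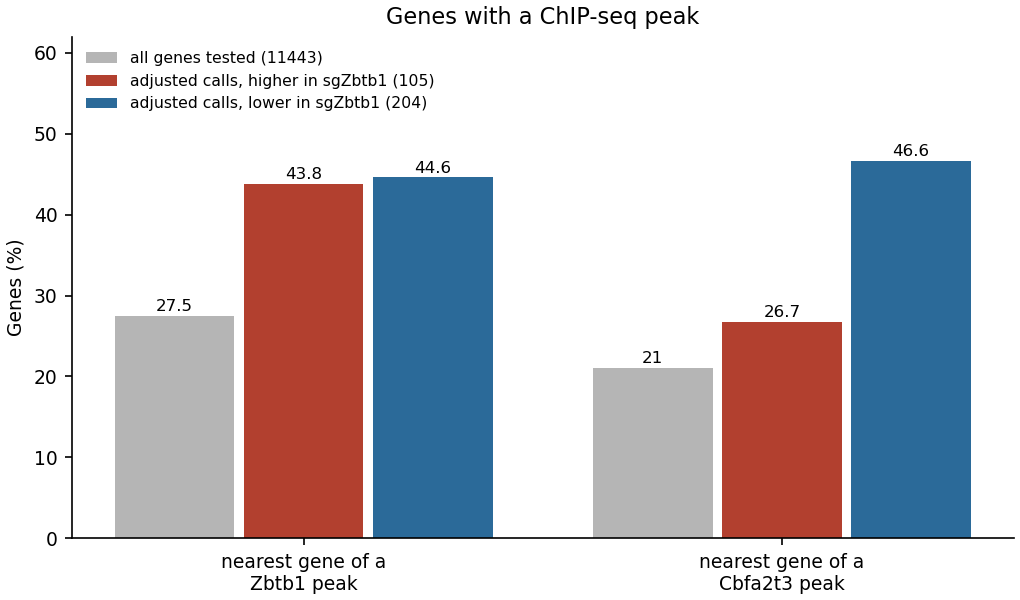
Share of genes (%) that are the nearest gene of at least 1 Zbtb1 peak (left) or Cbfa2t3 peak (right), for all 11443 genes tested, the 105 higher and the 204 lower genes in sgZbtb1. Zbtb1 peaks were at 43.8% and 44.6% of the called genes against 27.5% of all, and Cbfa2t3 peaks at 46.6% of the lower genes against 21%.

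Of the 24 named genes with the largest differences, a Zbtb1 peak was assigned to 8 of the 12 higher and 4 of the 12 lower, and a Cbfa2t3 peak to 5 of the 12 on each side. Over all calls the Zbtb1 shares were 43.8% and 44.6%, against 27.5% of all genes. The Zbtb1 peak with the highest score, 676.5, was assigned to *Tspan3*. It lay 62600 bases before the start of that gene, in an intron of another gene and on a ribosomal RNA repeat, and is not shown. A further peak, with a score of 106.9, covered the promoter of *Tspan3*. The next were in an intron of *Cacna1b* (129.5, with a Cbfa2t3 peak of score 47.4 over it), at the promoter of *Calu* (69.1), between genes 21310 bases before the start of *F13a1* (68.9) and in an intron of *Itpr2* (57.8). *Calu* is left out because its promoter window holds an annotated UTR. The 200 bases at the centres of the peaks of *Cacna1b*, *F13a1* and *Itpr2* are given on the plus strand of mm10 (GRCm38), and for *Tspan3* the 100 bases before its RefSeq start, on the minus strand. They show what lies under strong Zbtb1 peaks of higher genes (*Cacna1b*, *F13a1* and *Tspan3*) and of a lower gene (*Itpr2*). Capitals mark TGTGGT, the core that Runx factors bind, which reads ACCACA on the other strand.
*Cacna1b* intron, chr2:24747952-24748151: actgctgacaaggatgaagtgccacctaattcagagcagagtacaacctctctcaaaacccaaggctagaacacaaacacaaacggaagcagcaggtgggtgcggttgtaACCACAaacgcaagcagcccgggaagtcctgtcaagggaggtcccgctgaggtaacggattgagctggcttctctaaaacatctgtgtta
*F13a1* upstream, chr13:37071455-37071654: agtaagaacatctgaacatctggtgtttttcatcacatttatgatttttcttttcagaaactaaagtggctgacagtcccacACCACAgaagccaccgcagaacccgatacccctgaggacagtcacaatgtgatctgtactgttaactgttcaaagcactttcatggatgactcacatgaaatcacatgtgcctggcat
*Itpr2* intron, chr6:146452500-146452699: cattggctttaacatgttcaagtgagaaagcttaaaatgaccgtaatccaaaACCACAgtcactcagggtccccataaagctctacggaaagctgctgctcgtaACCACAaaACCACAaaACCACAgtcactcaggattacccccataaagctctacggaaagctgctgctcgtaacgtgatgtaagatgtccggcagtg
*Tspan3* promoter, chr9:56161071-56161170: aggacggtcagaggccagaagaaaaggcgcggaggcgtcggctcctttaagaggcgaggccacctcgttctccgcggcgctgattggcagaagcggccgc
The core was found 1 time each in the windows of *Cacna1b* and *F13a1* and 4 times in that of *Itpr2*, each time read as ACCACA, and not in that of *Tspan3*. It was in 41.3% of the 200-base centres of 5890 Zbtb1 peaks on assembled chromosomes and in 5.73% of the 100-base windows before the start of 27025 RefSeq genes. The letters TGGTGGT, searched on both strands and allowed to overlap the core, were in none of the 4 windows, in 15.8% of the peak centres and in 1.26% of the promoter windows. The peak centres are longer than the promoter windows, so these shares are not to be set against each other.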

How the data were processed

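For QuantSeq, the authors trimmed reads with fastp, mapped them to mm10 with STAR and scaled each library to one total, so that the deposited TPM values are CPM, not divided by length. In the 6 libraries 100% of the values gave whole reads, within 0.05 reads. For ChIP-seq, the authors used Bowtie 1.1.1 and HOMER and deposited the reproducible peaks with a normalized peak score. The plan written for TPM was kept. Replicates are the 3 biological replicates numbered in the labels. Correlations of deviations between same-numbered libraries were 0.028, -0.023 and 0.016, so that the numbers were not taken as pairs.

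Genes above a mean of 1 TPM entered limma 3.58.1, run under R 4.3.3 with trend on log2(TPM + 1) of the 6 libraries. This scale understates the change of genes with low levels. P-values are two-sided and adjusted by Benjamini-Hochberg over the 11443 genes. The call rules were an adjusted p under 0.05 and the DEG rule of the study. Alternatives were edgeR 4.0.16 (quasi-likelihood, TMM) and DESeq2 1.42.0 on recovered reads, and the settings of the closing section. In simulated data of this comparison, with 11443 genes, the steps called 96% of 100 genes changed 2-fold and all of 100 changed 4-fold, with 17 unchanged genes called. The changed genes were drawn from genes of higher mean level only, so these shares were not measured for genes of low level. Intervals of depth cover counting error only. Genes were named by rule: the targeted genes, *Tcf7*, *Bcl11b*, *Bcl11a*, *Gata3* and *Bcl2*, up to 12 higher and 12 lower protein-coding genes as described, up to 6 called members of each of 30 gene lists (or those with the largest means), 4 long noncoding RNAs and the peaks with the highest scores. Not every gene that the rule names is reported here. Members and lists were chosen with earlier results of these data known. Of the genes tested, 11438 had coordinates in GENCODE vM21 and sequences came from GRCm38.p6 of RefSeq. Strand in counting is not given in the sources used here, so that a gene and its antisense partner cannot be told apart.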

Additional observations from a re-analysis of the deposited data

How the results depend on the processing

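The counts of calls were recomputed under 14 alternatives for the adjusted threshold and 15 for the rule of the study. At the adjusted threshold, 309 genes became 169 with DESeq2 on whole reads (66 higher and 103 lower), of which 162 were among the 309. Leaving out 1 library gave 151 to 280 genes. The other alternatives gave 232 with a pseudocount of 0.1, 262 with all 15 libraries in one fit, 272 with a mean above 10 TPM, 273 with all genes above 0, 293 with edgeR and 306 with median-of-ratios size factors, with which 57.2% in place of 66.0% were lower. By the rule of the study, 110 genes became 82 to 148, and 130 to 146 with 1 library left out. On unlogged values it named 100 genes (25 higher and 75 lower), of which 85 were shared. Lower genes were the majority under all of these.

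The labels number the replicates 1 to 3 in both groups. A limma fit that kept this number as a block called 321 genes (109 higher and 212 lower), which held all 309. The block left the 110 genes of the other rule the same and changed the call of no named gene. With the block the calls went from 1 to 2 in the glycolysis list, from 11 to 12 among ribosomal proteins and from 14 to 15 in ribosome biogenesis, with 1 of the 15 lower. The numbers showed no pairing in the data, since sgZbtb1 replicates 1 and 2 correlated best with another number.

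Of 115 named genes with a call, 48 kept it under every alternative, and of 1594 values 1292 kept the direction and the call, 302 kept the direction only and 0 changed direction. The alternatives reuse the libraries in which these genes were called, so the kept direction is not an independent check. Of 58 named genes without a call, 8 gained one under some alternative. The weakest genes tested lie near the floor of 3 reads, so that differences of genes under 10 TPM, *Tcf7* among them, are limited by depth.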

Other observations

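A list of 90 ribosome biogenesis genes was written after the values were seen and has no test of its own. All 90 were tested, 14 were higher in sgZbtb1 (15.6%, against 0.918% of all genes) and 76 did not pass. Of the 90, 79 had a log2 difference above 0 (5292 of all 11443 genes), with a median of 0.22 (-0.03 over all genes). *Ncl*, which encodes nucleolin, the major protein of the nucleolus, was at 4495, 4093 and 4438 TPM in sgZbtb1 and 3533, 3455 and 3522 TPM in sgCbfa2t2 (log2 difference 0.31, SE 0.07, limma adjusted p = 0.00254). *Dkc1*, the pseudouridine synthase of ribosomal RNA, was at 874, 989.7 and 1059 TPM in sgZbtb1 and 718, 635 and 829 TPM in sgCbfa2t2 (log2 difference 0.42, SE 0.08, limma adjusted p = 0.000335), and *Ddx21*, a nucleolar helicase, at 694, 643 and 749.8 TPM in sgZbtb1 and 574, 471 and 579.6 TPM in sgCbfa2t2 (log2 difference 0.36, SE 0.09, limma adjusted p = 0.00521). The *Ddx21* call was lost without sgCbfa2t2 replicate 2 or sgZbtb1 replicate 3 (adjusted p from 0.116 to 0.132). The 3 did not overlap between the groups, and the sgControl libraries were at 3499, 3428 and 3269.6 TPM for *Ncl* and 658, 675 and 755 TPM for *Dkc1*, below those of sgZbtb1. The 14 calls became 2 without sgCbfa2t2 replicate 2, 5 without sgZbtb1 replicate 2 or 3, 7 without sgCbfa2t2 replicate 1, 8 without sgZbtb1 replicate 1 (7 higher and 1 lower) and 7 with DESeq2, while the median stayed between 0.19 and 0.25. In the same libraries 11 of 56 ribosomal protein genes were lower (19.6%, against 1.78% of all genes, median -0.15). These 11 calls became 1 without sgCbfa2t2 replicate 2, 2 without sgZbtb1 replicate 2 and 3 with DESeq2.

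A list of 38 hypoxia response genes, also written after the values were seen, had 35 tested members, of which *Hilpda*, *Bnip3* and *Gapdh* were lower and 32 did not pass, with 29 log2 differences below 0 (median -0.25), as were 6151 of all 11443. The share lower was 8.57%, against 1.78% of all genes. The 3 calls became 1 without sgCbfa2t2 replicate 2 and 2 without sgZbtb1 replicate 3. Other calls named after their values were seen are given as values. *Tnfrsf9*, the costimulatory receptor 4-1BB, was listed at 0 in all 3 sgZbtb1 libraries and at 7.45, 4.29 and 7.25 TPM in sgCbfa2t2 (log2 difference -2.84, SE 0.59, limma adjusted p = 0.000776, a value that depends on the pseudocount). *Tcf7l2*, a relative of *Tcf7*, was at 1.68, 0 and 1.47 TPM in sgZbtb1 and 11.7, 9.54 and 8.69 TPM in sgCbfa2t2 (log2 difference -2.54, SE 0.51, limma adjusted p = 0.000356). The linker histone gene *Hist1h1e* was at 302, 371 and 319 TPM in sgZbtb1 and 238, 213 and 221 TPM in sgCbfa2t2 (log2 difference 0.55, SE 0.10, limma adjusted p = 7.93e-05), the metallothionein gene *Mt1* at 146, 122 and 125 TPM in sgZbtb1 and 232, 196 and 193 TPM in sgCbfa2t2 (log2 difference -0.66, SE 0.12, limma adjusted p = 3.95e-05) and *S100a4*, a calcium-binding protein, at 136, 90.4 and 91.3 TPM in sgZbtb1 and 235, 220.5 and 212 TPM in sgCbfa2t2 (log2 difference -1.09, SE 0.12, limma adjusted p = 1.37e-11). The first was higher and the other 2 were lower in sgZbtb1, without overlap.

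*Syne2*, which led the higher side, lies on chromosome 12 at 259.3 kb from *Zbtb1*, the gene targeted in the libraries where it was higher. Within 1 Mb of *Zbtb1*, a window chosen after the values were seen, it was the single adjusted call of 15 genes tested (median log2 difference 0.08). An unadjusted p under 0.05 was found for 5 of the 15, against 13.2% of all genes. Besides *Syne2* these were *Sgpp1*, *Mthfd1*, *Hspa2* and *Plekhg3*, with log2 differences of 1.03, 0.37, 0.74 and 0.73 and limma adjusted p = 0.31, 0.255, 0.31 and 0.145. All 5 differences were above 0. *Zbtb25*, the nearest of the genes tested, had a log2 difference of -0.56 (limma adjusted p = 0.534). Within 1 Mb of *Cbfa2t2* on chromosome 2, the 22 genes tested all missed the adjusted threshold in limma, edgeR and DESeq2 (3 at an unadjusted p under 0.05, median -0.17). The part of the position in the *Syne2* difference was not tested.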
